A study of Mus musculus with 16 samples.

Results

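The heavy chain constant genes of the mouse immunoglobulin locus were followed here probe by probe, in splenic B cells with and without the 3' regulatory region (3'RR). The probes were taken by position alone, as every non-control probe on chromosome 12 between 114427734 and 114659689 (mm9), an interval that runs from the edge of Tmem121 on the 3'RR side to the mu constant gene. This gave 17 probes with 15 different gene names, out of 55681 probes with 34832 gene names on the array. All 17 were kept by the filter on dim probes, which asks for 4 or more of the 16 arrays to be well above background, and 10 of them were well above background on all 16.

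The arrays formed 4 groups of 4: 3'RR-deficient B cells on slide 1, wild-type B cells on slide 1, 3'RR-deficient B cells on slide 2 and wild-type B cells on slide 2. The deficient mice carry a knockout of the 3'RR on an IgH allele of 129 origin, bred on a BALBC background, and their strain is entered as BALBC. The strain of the wild-type mice is entered as 129, so genotype and strain cannot be told apart. All samples were total RNA of splenic B cells taken with beads against B220, with 0.2 µg of RNA and a RIN number of 9 on every label, measured with Cy3 on Agilent 1-colour arrays. The age of the mice is not stated in the labels, nor is a treatment or a culture of the cells of either slide. The series' design text counts 4 deficient and 4 wild-type mice, fewer than the 8 arrays of each genotype, and the labels do not tie arrays to mice. Some arrays may thus share a mouse, and the p-values cover only the spread between the arrays given, some of which may be technical.

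The constant genes encode the part of the antibody heavy chain that sets its class. Naive B cells transcribe mu and delta, the nearest to the assembled variable exon, as 1 long transcript unit that is spliced to give IgM or IgD. The gamma, epsilon and alpha genes, which lie further downstream, give the IgG, IgE and IgA classes, and each of them is first transcribed as a germline transcript that opens its switch region to recombination. The 3'RR is a cluster of B cell enhancers downstream of the alpha gene, known for its role in germline transcription, class switch recombination and heavy chain output of plasma cells.

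Each probe is 60 bases long, and 16 of the 17 lie on the minus strand, the strand of the heavy chain genes. The sequences of 10 probes are shown because the differences described below rest on them, in order of distance from the 3'RR. They are written 5′ to 3′ from the array design, and capitals mark a stop codon that closes the reading frame of a probe.
J558-described a probe (A_51_P509679, chr12:114496985-114497044): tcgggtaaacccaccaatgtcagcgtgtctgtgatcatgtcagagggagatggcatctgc
undescribed a probe (A_55_P1960152, chr12:114507471-114507530): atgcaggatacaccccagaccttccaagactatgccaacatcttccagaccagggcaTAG
epsilon probe (A_55_P1985209, chr12:114509504-114509563): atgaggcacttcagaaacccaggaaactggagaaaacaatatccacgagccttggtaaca
gamma 2C probe (A_55_P2021084, chr12:114523536-114523595): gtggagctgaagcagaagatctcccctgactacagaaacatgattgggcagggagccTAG
IgG2a b probe (A_55_P2034655, chr12:114525600-114525659): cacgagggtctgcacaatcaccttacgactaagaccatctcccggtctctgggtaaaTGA
gamma 2B probe (A_55_P2063283, chr12:114544738-114544797): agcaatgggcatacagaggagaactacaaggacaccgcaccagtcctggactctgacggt
gamma 1 a probe (A_51_P461067, chr12:114567263-114567322): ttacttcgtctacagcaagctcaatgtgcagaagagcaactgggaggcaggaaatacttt
gamma 3 probe (A_55_P2118876, chr12:114597942-114598001): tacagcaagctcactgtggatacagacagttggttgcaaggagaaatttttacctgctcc
delta probe (A_51_P266248, chr12:114654277-114654336): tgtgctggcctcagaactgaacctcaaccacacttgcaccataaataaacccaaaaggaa
mu probe (A_51_P485421, chr12:114659630-114659689): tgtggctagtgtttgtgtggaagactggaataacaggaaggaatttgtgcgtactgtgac
Among all 136 pairs of the 17 probes, the longest run of bases in common on either strand was 13, and GC content ran from 35% to 55%. The undescribed a, gamma 2C and IgG2a b probes each end in a stop codon of an open frame.

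The names follow the array's own descriptions. The 3 probes nearest the 3'RR lie 69.3, 69.4 and 70.6 kb from the edge of the interval. The first pair carries a description of the J558 heavy chain family (J558-described a and b, A_51_P509679 and A_55_P1960148) and the third is described as heavy chain complex (A_55_P2214124), although J558 is a family of variable segments and these positions lie among the constant genes. In the RefSeq gene order of assembly GRCm38.p6 the gene between Tmem121 and Ighe is Igha, the alpha constant gene, and no probe of the interval has a description that names alpha. Then follow a probe with no description at 79.7 kb (undescribed a), epsilon at 81.8 kb and gamma 2C at 95.8 kb. Next is a pair described as IgG2a at 97.8 and 97.9 kb (IgG2a a, A_55_P1956598, and IgG2a b). In the same RefSeq order only Ighg2c lies between Ighe and Ighg2b, so the gamma 2C and IgG2a probes cannot be counted as separate genes. Further out lie gamma 2B at 117 kb, a pair for gamma 1 at 139.5 and 140.9 kb (gamma 1 a and gamma 1 b, A_55_P2066173), gamma 3 at 170.2 kb and a second probe with no description at 190 kb (undescribed b, A_55_P2113920). At the mu end lie delta at 226.5 kb, predicted gene Gm11029 on the plus strand at 227.4 kb (A_55_P2055315), a probe described as an open reading frame with a putative membrane-binding segment at 227.6 kb (putative ORF, A_52_P156852) and mu at 231.9 kb. The gamma 1 b probe also lists the transcript of gamma 2C among its accessions, so its signal cannot be assigned to gamma 1 alone. The mu probe was printed in 10 spots per array, whose standard deviation (SD) within an array was 0.0346 to 0.0829 on the log2 scale, and every other probe had 1 spot.

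Levels are log2 of the processed signal minus the 75th percentile of the same array, so a level of 0 equals that percentile, and levels of different probes are not compared. Slide 1 arrays had 26064 to 29249 probes well above background, and slide 2 arrays had 29957 to 34191. All 8 B cell markers of the list were well above background on all 16 arrays. Each log2 difference is deficient minus wild type, with the standard error (SE) of 1 limma model over all 16 arrays, and adjusted p is by Benjamini-Hochberg over all 32880 probes tested, with a threshold of 0.05.

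Over both slides, 14 of the 17 probes fell in deficient cells, all 17 differences were below 0, and their median was -3.59 on the log2 scale. The sign of Gm11029 (-0.01) depended on the processing, with 0.03 under median scaling and 0.05 under quantile normalization. Of all probes tested, 9.22% were lower and 7.58% higher in this comparison, with a median of -0.03. When arrays were scaled by their median instead, 1853 probes were lower and 2751 higher, against 3032 and 2493 here, and the same 14 members fell. The falls were either deep or shallow. All 12 probes from the 3'RR side up to and including gamma 3 were over 8-fold lower, a size that 31 of all 32880 probes reached (0.0943%), whereas delta and mu differed by -0.73 and -1.24. With dim values at the floor 10 of those 12 stayed over 8-fold, and the heavy chain complex and undescribed a probes stood at -2.72 and -2.97. With another background correction, normexp, these probes stood at -2.24 and -2.21 and gamma 2C at -2.52, all under 8-fold. On slide 1 12 of 17 fell (median -3.53, against 14.1% of all probes lower and 9.18% higher), and on slide 2 13 of 17 fell (median -4.21, against 3.82% lower and 3.65% higher). In bulk samples fewer cells with a transcript and less of it per cell cannot be told apart.

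**Figure D1:**
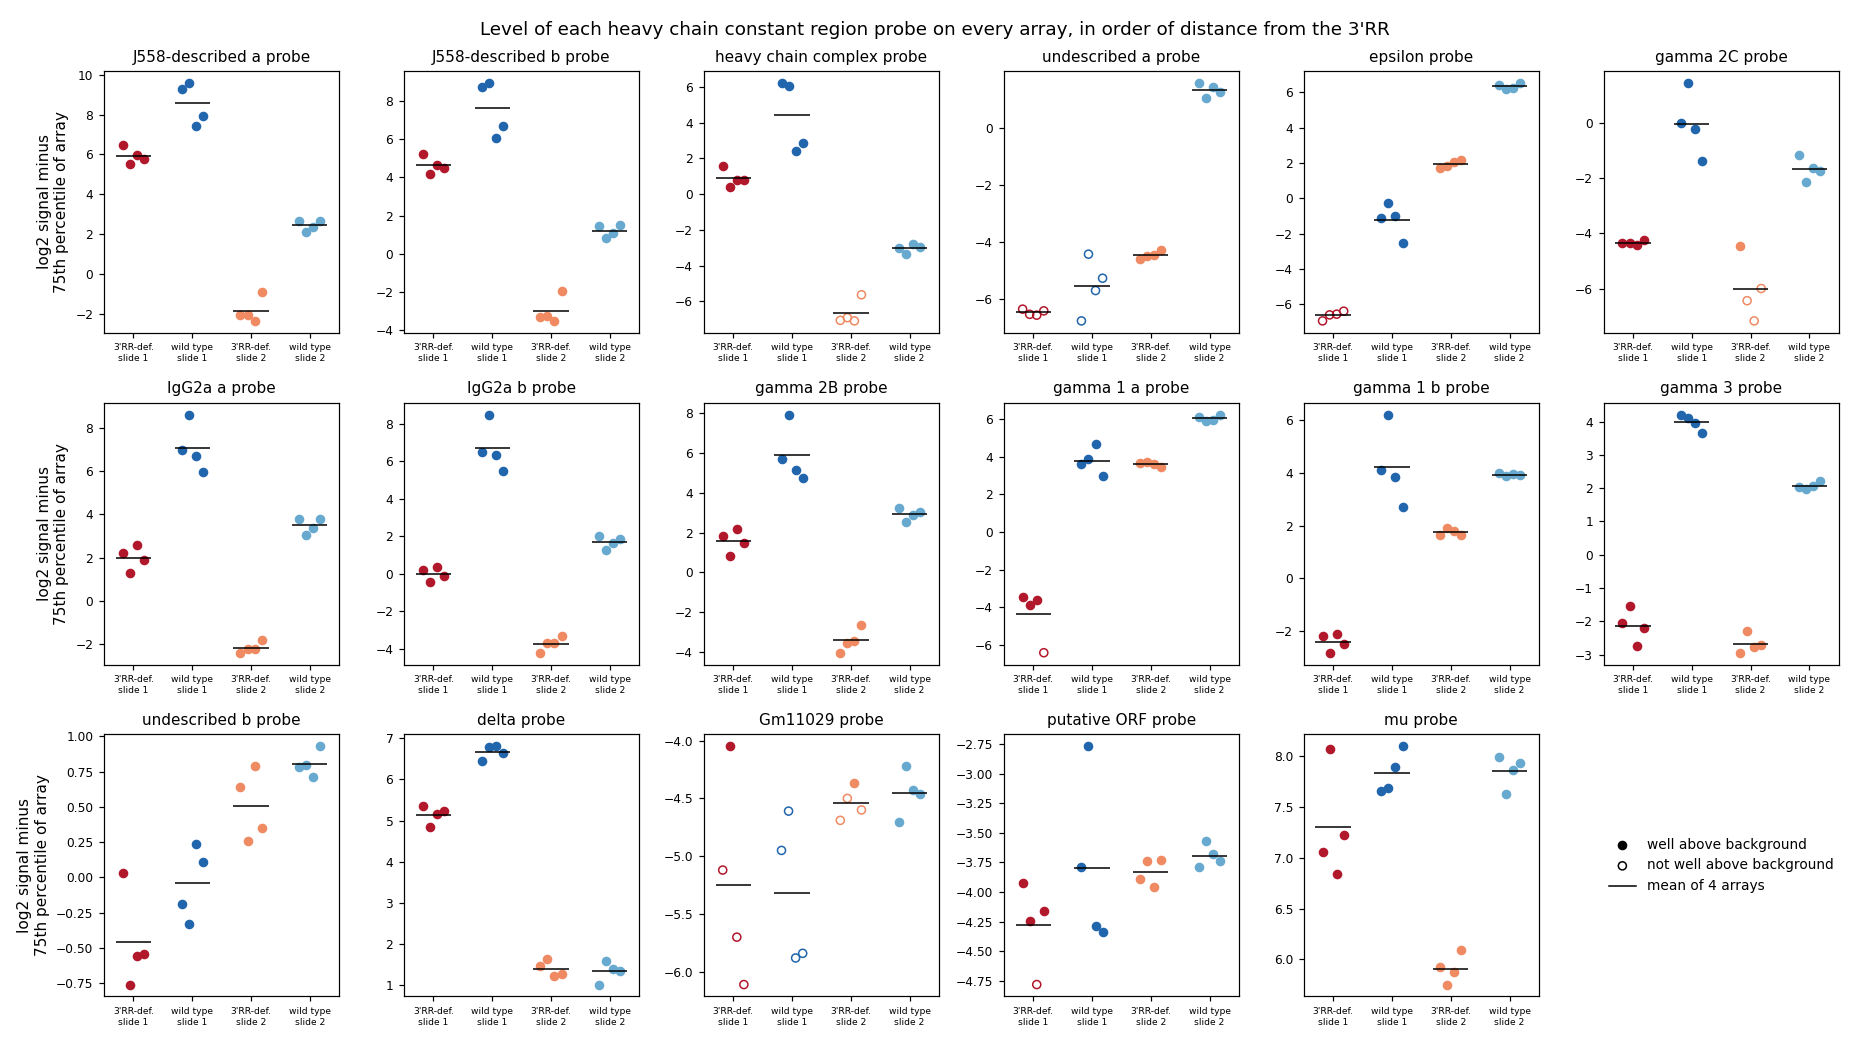
Level of each of the 17 probes on every array (y axis, log2 signal minus the array's 75th percentile, with a scale of its own in each panel), in the 4 groups of genotype and slide. Filled points are well above background, open points are not, and the line is the mean of 4 arrays. Gamma 3 on slide 1 runs from -2.74 to -1.54 in deficient and from 3.67 to 4.21 in wild-type cells. The 4 groups of mu span 5.75 to 8.10.

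The 3 probes at the position of the alpha gene fell on both slides and were spread widely in wild-type cells of slide 1. The J558-described a probe had levels of 6.49, 5.52, 5.96 and 5.79 on deficient arrays 9, 10, 11 and 12 of slide 1, against 9.30, 9.60, 7.42 and 7.94 on wild-type arrays 2, 5, 6 and 8. On slide 2 it had -2.07, -2.08, -2.36 and -0.93 on deficient arrays 1, 2, 3 and 4, against 2.65, 2.11, 2.35 and 2.68 on wild-type arrays 1, 2, 3 and 5. Genotypes did not overlap on either slide, and wild-type arrays 2 and 5 of slide 1 stood above arrays 6 and 8. The probe fell by 2.62 on slide 1 (SE 0.44, adjusted p 0.00114) and by 4.31 on slide 2 (SE 0.44, adjusted p 2.23e-05).

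The J558-described b probe, which shares its predicted transcript with the first, fell by 2.97 on slide 1 (SE 0.57, adjusted p 0.00258) and by 4.21 on slide 2 (SE 0.57, adjusted p 0.000324). The heavy chain complex probe had 1.56, 0.40, 0.81 and 0.77 on deficient arrays of slide 1, against 6.24, 6.08, 2.44 and 2.89 on wild-type arrays. The same wild-type arrays 2 and 5 were the high ones for all 3 probes. The heavy chain complex probe fell by 3.53 on slide 1 (SE 0.73, adjusted p 0.0041), a call that ended when slide 1 was fitted alone (adjusted p 0.0536). On slide 2 the heavy chain complex probe was well above background on 0 of 4 deficient arrays and on all 4 wild-type arrays. It fell by 3.65 there as fitted (adjusted p 0.00676), and the bound was at least 3.78-fold lower. A bound compares the mean of the bright group with a floor. The floor on each dim array is the lowest signal counted as well above background, or the dim signal itself if higher. Unless a setting is named, the adjusted p beside a bound is that of the fitted difference. With dim values at that floor the slide 2 call ended (difference -1.92, adjusted p 0.0985), as it did with another background correction, normexp (-1.03, adjusted p 0.371), and in the authors' deposited table (-1.13, adjusted p 0.443). The falls with normexp and in the deposited table were smaller than the bound.

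The undescribed a and epsilon probes, which are neighbours, both fell on slide 2. Epsilon, the constant gene of IgE, had 1.74, 1.85, 2.08 and 2.16 on deficient arrays of slide 2, against 6.41, 6.21, 6.27 and 6.55 on wild-type arrays. It was 21.1-fold lower there (difference -4.40, SE 0.33, adjusted p 1.69e-06), with no overlap. On slide 1 no deficient array was well above background for epsilon, while wild-type arrays had -1.11, -0.25, -0.97 and -2.51, all well above background. The bound there was at least 11.3-fold lower (difference of -3.50 with dim values at the floor, adjusted p 1e-05). Normexp gave a smaller fall than that bound (-2.41, adjusted p 7.59e-06). The measured means were -6.61 and -1.21 (adjusted p 2.55e-07).

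The undescribed a probe was well above background on slide 2 alone, with -4.59, -4.48, -4.44 and -4.26 on deficient arrays, against 1.57, 1.05, 1.41 and 1.26 on wild-type arrays. It was 54.4-fold lower in deficient cells of slide 2 (difference -5.76, SE 0.33, adjusted p 1.16e-07), and the genotypes did not overlap. On slide 1 all 8 arrays were dim for this probe, so no fold can be given there, and the difference between its slide values rests on dim signals.

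The gamma genes, which encode the IgG heavy chains, had 7 probes, and all 7 fell on both slides. Gamma 2C had -4.34, -4.35, -4.42 and -4.25 on deficient arrays of slide 1, against 0.01, 1.45, -0.22 and -1.39 on wild-type arrays. On slide 2 it was well above background on 1 of 4 deficient arrays, with levels of -4.44, -6.43, -7.16 and -5.99, against -1.16, -2.14, -1.64 and -1.75 on wild-type arrays. Genotypes did not overlap on either slide, and the differences were -4.30 on slide 1 (SE 0.56, adjusted p 0.000193) and -4.33 on slide 2 (SE 0.56, adjusted p 0.000212). The slide 2 value was -2.03 with normexp and -2.18 in the authors' deposited table, still past the threshold (adjusted p 0.0024 and 0.00392).

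The pair of IgG2a probes fell by 5.38 (SE 0.31, adjusted p 5.22e-08) and 6.05 (SE 0.33, adjusted p 2.92e-08) over both slides. IgG2a b had 0.20, -0.42, 0.37 and -0.10 on deficient arrays of slide 1, against 6.49, 8.49, 6.31 and 5.47 on wild-type arrays. Slide 2 values were -4.20, -3.70, -3.68 and -3.30 on deficient arrays, against 2.00, 1.29, 1.67 and 1.84 on wild-type arrays. No deficient array reached a wild-type array on either slide, and wild-type array 5 of slide 1 was the highest for both IgG2a probes and for gamma 2B.

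Gamma 2B had 1.83, 0.80, 2.20 and 1.48 on deficient arrays of slide 1, against 5.69, 7.92, 5.12 and 4.76 on wild-type arrays. On slide 2 it had -4.03, -3.53, -3.44 and -2.65 on deficient arrays, against 3.24, 2.55, 2.90 and 3.04 on wild-type arrays. It fell by 4.30 on slide 1 (SE 0.55, adjusted p 0.00017) and by 6.34 on slide 2 (SE 0.55, adjusted p 5.16e-06), and these falls were not shown to differ between the slides (adjusted p 0.093).

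Gamma 3 was the gamma probe that varied least among wild-type arrays of slide 1 (SD 0.23, n = 4). It had -2.06, -1.54, -2.74 and -2.21 on deficient arrays of slide 1, against 4.21, 4.10, 3.97 and 3.67 on wild-type arrays. Slide 2 values were -2.94, -2.29, -2.76 and -2.70 on deficient arrays, against 2.02, 1.97, 2.05 and 2.20 on wild-type arrays. It fell by 6.12 on slide 1 (SE 0.21, adjusted p 6.48e-10) and fell by 4.73 on slide 2 (SE 0.21, adjusted p 1e-08), and the fall was smaller on slide 2 by 1.39 (SE 0.30, adjusted p 0.00992).

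Gamma 1 was the constant gene whose fall differed most between slides. The gamma 1 a probe had -3.44, -3.87, -3.63 and -6.41 on deficient arrays of slide 1, the last not well above background, against 3.62, 3.89, 4.69 and 2.98 on wild-type arrays. Slide 2 values were 3.67, 3.70, 3.60 and 3.47 on deficient arrays, against 6.11, 5.91, 5.95 and 6.25 on wild-type arrays. The genotypes did not overlap on either slide, but deficient cells of slide 2 stood at a level that wild-type cells had on slide 1.

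The gamma 1 a difference was -8.13 on slide 1 (SE 0.52, adjusted p 3.18e-07) and -2.45 on slide 2 (SE 0.52, adjusted p 0.01), and the slides differed by 5.69 (SE 0.73, adjusted p 0.000607). The gamma 1 b probe gave -6.63 (SE 0.50, adjusted p 1.53e-06) and -2.18 (SE 0.50, adjusted p 0.0157), with a difference between slides of 4.46 (SE 0.70, adjusted p 0.00227). Its levels on slide 2 were 1.66, 1.93, 1.79 and 1.64 in deficient cells, against 3.99, 3.88, 3.95 and 3.92 in wild-type cells.

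Delta and mu, the pair transcribed in naive B cells, fell far less, delta on slide 1 and mu on slide 2. Delta had 5.35, 4.84, 5.15 and 5.23 on deficient arrays of slide 1, against 6.45, 6.79, 6.80 and 6.65 on wild-type arrays. Slide 2 values were 1.46, 1.65, 1.23 and 1.28 on deficient arrays, against 1.02, 1.59, 1.40 and 1.35 on wild-type arrays. Delta fell by 1.53 on slide 1 (SE 0.14, adjusted p 1.23e-05), without overlap, and differed by 0.07 on slide 2 (SE 0.14, adjusted p 0.847), where the genotypes overlapped. The slides differed by 1.60 (SE 0.20, adjusted p 0.00051). The delta call over both slides (difference -0.73, SE 0.10, adjusted p 0.000244) ended when slide entered as an additive block (adjusted p 0.0512) or a random block (adjusted p 0.134).

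Mu had 7.06, 8.07, 6.84 and 7.23 on deficient arrays of slide 1, against 7.66, 7.69, 7.90 and 8.10 on wild-type arrays. Deficient array 10 lay within the wild-type range there, and the difference of -0.54 did not pass (SE 0.21, adjusted p 0.0751). Without that array it was -0.80 (adjusted p 0.00184). On slide 2 mu had 5.92, 5.75, 5.87 and 6.09 on deficient arrays, against 7.99, 7.63, 7.87 and 7.94 on wild-type arrays, and it fell by 1.95 with no overlap (SE 0.21, adjusted p 3.67e-05). The slide 2 fall exceeded the slide 1 difference by 1.41 (SE 0.29, adjusted p 0.00895).

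The remaining 3 probes carried no description of a constant gene and did not pass between genotypes over both slides or on either slide. The undescribed b probe, which stands between gamma 3 and delta, was well above background on all 16 arrays and differed by -0.35 over both slides (SE 0.12, adjusted p 0.0615). The slide values were -0.41 and -0.29. It passed in the authors' deposited table (-0.35, adjusted p 0.0451) and on leaving out array 9 (-0.43, adjusted p 0.0137) of the deficient group or array 5 (-0.40, adjusted p 0.0408) of the wild-type group of slide 1, or array 3 (-0.40, adjusted p 0.0452) of the deficient group of slide 2. Gm11029, on the other strand, was well above background on 6 arrays and differed by -0.01 (SE 0.26, adjusted p 0.989). The putative ORF probe differed by -0.30 (SE 0.20, adjusted p 0.325). The genotypes overlapped on both slides for each of these 3 probes.

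**Figure D2:**
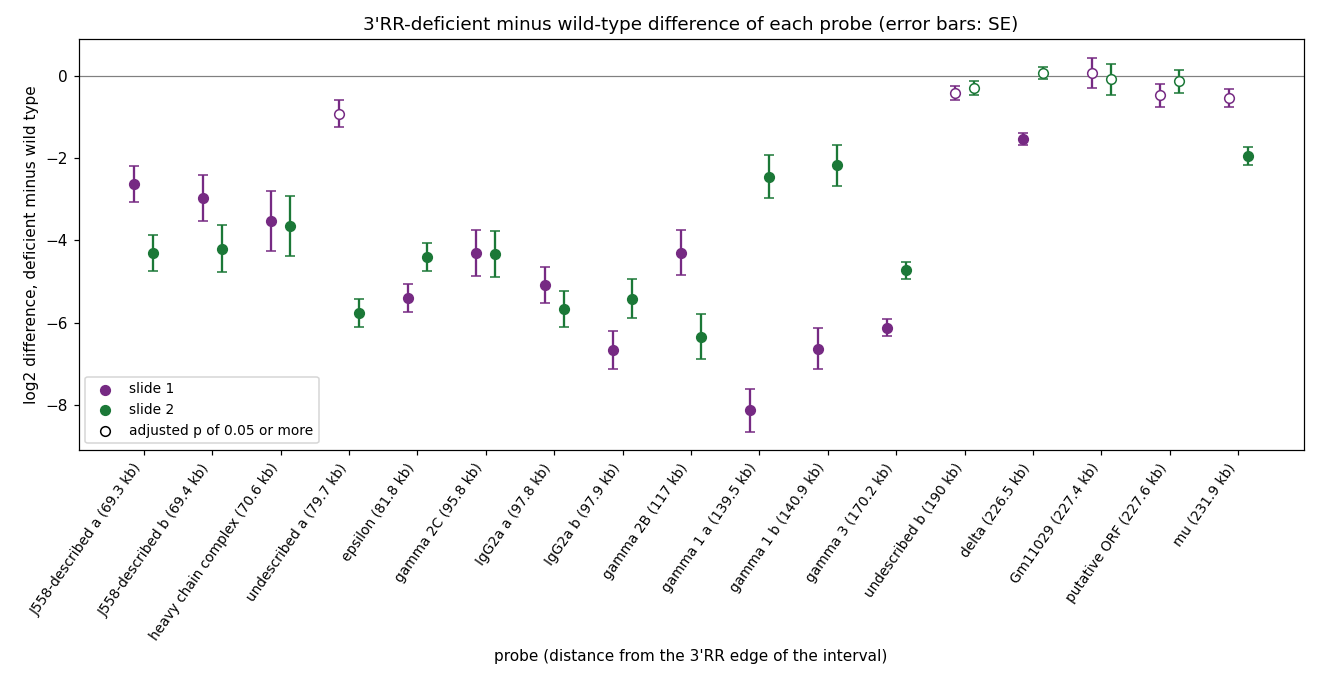
Log2 difference, deficient minus wild type, of each probe (y axis) in order of distance from the 3'RR edge of the interval (x axis, distance in kb), for slide 1 and slide 2, with SE bars. The probes up to gamma 3 lie between -8.13 and -0.92, and those from undescribed b to mu between -1.95 and 0.07. The value of -0.92 is that of undescribed a on slide 1, where every array was dim.

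Distances are from the edge of the interval on the 3'RR side, not from the 3'RR itself. Across the 17 probes Spearman's rho between this distance and the difference was 0.36 over both slides, 0.32 on slide 1 and 0.60 on slide 2. Pearson's r was 0.72, 0.47 and 0.81. Over the 12 probes up to gamma 3 alone, an end point set after the values were seen, rho was -0.75 over both slides, -0.79 on slide 1 and -0.05 on slide 2, where a negative rho means a deeper fall farther from the 3'RR. The order of the falls among these 12 thus went with distance on slide 1 and not on slide 2. The slide 1 order includes undescribed a (-0.92), which was dim on every array of that slide. It also includes epsilon, dim on every deficient array there (-5.40 as fitted, -2.41 with normexp). These are descriptions over probes that share arrays and, in pairs, transcripts. The probes at the position of alpha, 69.3 to 70.6 kb from that edge, fell by 3.47 to 3.59 over both slides. Gamma 3, at 170.2 kb, fell by 5.43. The next probe, at 190 kb, was the first that did not pass.

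Because mu itself was lower, each probe was also taken relative to mu on the same array. Over both slides 12 of the 16 other probes fell relative to mu, against 0.474% of all probes, and the other 4 rose, against 95.3% of all probes. On slide 1 12 fell relative to mu (0.669% of all probes), delta among them with -0.99 (SE 0.31, adjusted p 0.0298). On slide 2 10 fell (0.325% of all probes) and 4 rose (97.2% of all probes).

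The gamma 1 pair did not pass relative to mu on slide 2, with -0.50 for gamma 1 a (SE 0.52, adjusted p 0.355) and -0.23 for gamma 1 b (SE 0.56, adjusted p 0.69). On that slide their falls were thus not shown to exceed that of mu by this model, whose SE draws on both slides. Gamma 1 a levels varied more on slide 1 (SD 1.39 in deficient and 0.71 in wild-type cells) than on slide 2 (SD 0.10 and 0.15). Relative to mu on slide 2 the genotypes did not overlap for gamma 1 a (means -2.30 and -1.80) and overlapped for gamma 1 b. Epsilon relative to mu was -4.86 on slide 1 (SE 0.40, adjusted p 3.07e-07; dim on every deficient array) and -2.45 on slide 2 (SE 0.40, adjusted p 1.33e-05). Delta relative to mu was 2.02 on slide 2 (SE 0.31, adjusted p 6.36e-06). That is near the median of all probes relative to mu there (1.96), and delta itself differed by 0.07.

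**Figure D3:**
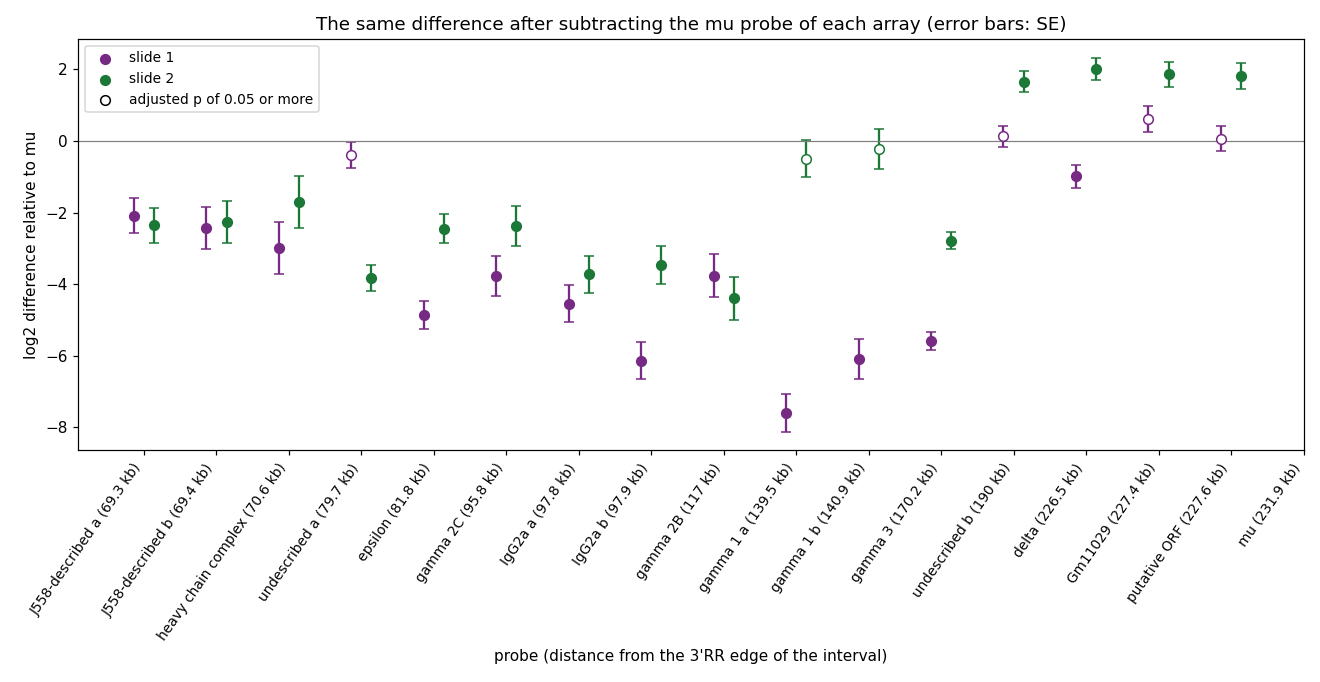
Log2 difference, deficient minus wild type, of each of the other 16 probes after the level of mu on the same array was subtracted (y axis), in order of distance (x axis, kb), for both slides with SE bars. Gamma 1 a stands at -7.59 on slide 1 and -0.50 on slide 2, and delta at -0.99 and 2.02. The median of all probes relative to mu was 0.47 on slide 1 and 1.96 on slide 2.

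Most constant gene probes differed between the slides in both genotypes, a comparison added after seeing the data. Slide 2 minus slide 1, 72.9% of all probes passed in wild-type cells and 74.7% in deficient cells, with medians of 0.35 and 0.39, and -0.03 and 0.10 with arrays scaled by their median. The differences of most constant gene probes were much larger than that shift. Those of mu (0.02) and gamma 1 b (-0.30) in wild-type cells and of gamma 3 in deficient cells (-0.54) were not. Among the 17 probes, 6 were over 32-fold different in wild-type cells, against 1.04% of all probes, and their direction went by gene.

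The 3 probes at the position of alpha were lower on slide 2, with differences of -7.80 and -7.64 for the J558-described pair in deficient cells (adjusted p 9.79e-10 and 1.85e-08) and of -6.11 and -6.40 in wild-type cells (adjusted p 1.46e-08 and 1.44e-07). Delta was lower on slide 2 as well, with differences of -3.73 in deficient cells (adjusted p 3.43e-11) and -5.33 in wild-type cells (adjusted p 1.76e-12). The IgG2a pair and gamma 2B were lower on slide 2 in both genotypes, with differences from -4.99 to -2.94.

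Epsilon went the other way. It was at least 101-fold higher on slide 2 in deficient cells, which were not well above background on slide 1 (adjusted p 4.01e-11; a log2 difference of 5.18 with normexp, below that bound), and higher by 7.57 in wild-type cells (SE 0.33, adjusted p 1.39e-10). The undescribed a probe was at least 1.20-fold higher on slide 2 in deficient cells (adjusted p 8.01e-05), a call that ended with normexp (0.24, adjusted p 0.114). In wild-type cells the bound was at least 58.0-fold higher, a log2 difference of 5.86 (adjusted p 3.35e-10 for the fitted 6.85). Normexp gave a smaller log2 rise than that bound (4.29). Gamma 1 a was higher on slide 2, by 7.94 in deficient cells (adjusted p 4.77e-09) and by 2.26 in wild-type cells (adjusted p 0.00127). Gamma 1 b was higher on slide 2 by 4.16 in deficient cells (adjusted p 3.03e-06) and differed by -0.30 in wild-type cells, where the slides overlapped (adjusted p 0.599), so the wild-type rise was seen with 1 of the 2 gamma 1 probes.

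Mu differed by -1.39 between the slides in deficient cells (SE 0.21, adjusted p 2.84e-05) and by 0.02 in wild-type cells (SE 0.21, adjusted p 0.935; -0.36 with arrays scaled by their median). Each slide was also scanned at a time of its own, and slide, scan and anything else that differed between the 2 sets of samples cannot be told apart.

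Markers of cell types differed between the slides as well. Of all probes, 25.6% were lower on slide 2 and 49.0% higher in deficient cells, and 25.3% and 47.7% in wild-type cells. Slide 2 minus slide 1, 6 of 8 B cell markers were lower in each genotype. Cr2, a complement receptor of mature B cells, differed by -6.45 in deficient and -6.73 in wild-type cells. Ms4a1 was higher in deficient cells, by 0.38 (adjusted p 0.000412). All 4 natural killer cell markers and all 3 erythroid genes were lower on slide 2 in both genotypes, with Gzma at -5.63 in deficient and -6.41 in wild-type cells. Of 6 macrophage and monocyte markers 6 were lower in deficient and 4 in wild-type cells, with Csf1r at -5.28 and -5.47. Of 7 T cell markers 5 were lower and 1 higher in each genotype, and of 5 plasmacytoid dendritic cell markers 3 were lower in deficient and 4 in wild-type cells. The summed natural killer cell level ran from 1.49 to 4.04 in deficient and from 3.04 to 3.75 in wild-type cells of slide 1, and from -3.61 to -2.66 and from -3.26 to -2.45 on slide 2. The summed macrophage level ran from 6.48 to 6.94 and from 6.21 to 7.02 on slide 1, and from 5.22 to 5.27 and from 4.79 to 5.19 on slide 2, in the same order. The part of these cells in the slide differences of the constant genes was not tested.

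**Figure D4:**
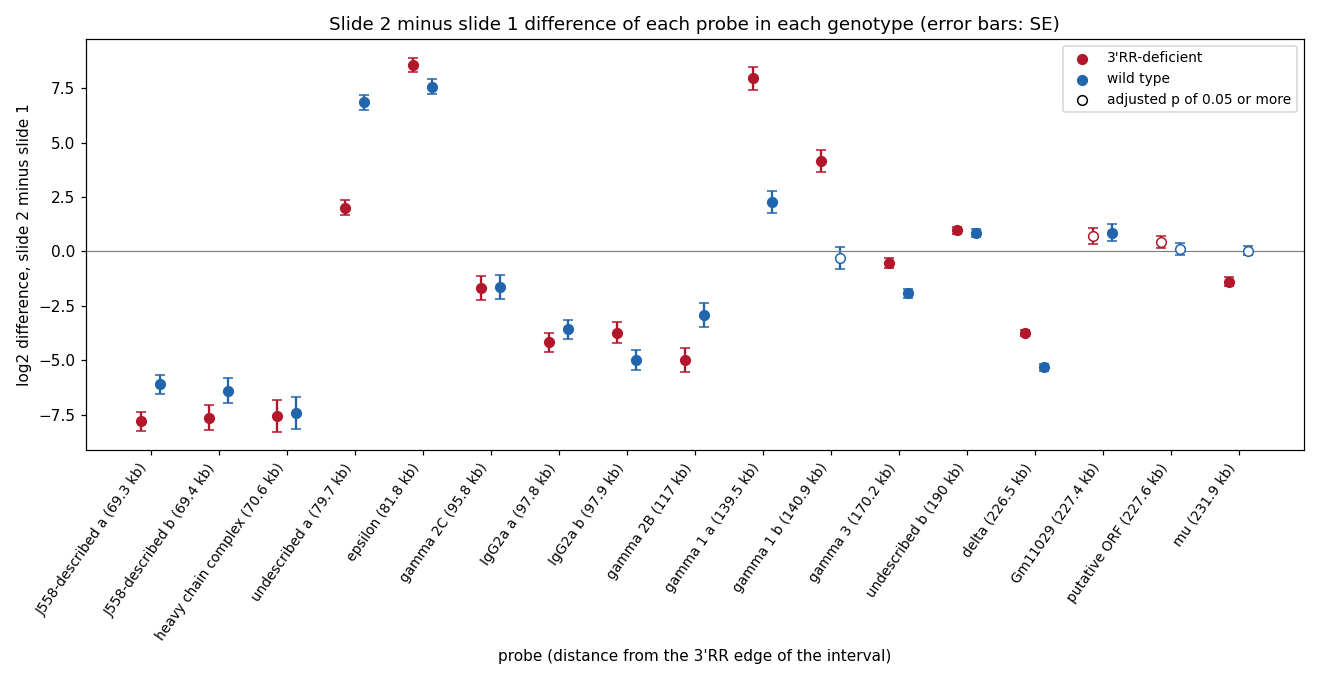
Log2 difference, slide 2 minus slide 1, of each probe (y axis) in order of distance (x axis, kb), in deficient and wild-type cells with SE bars. Epsilon lies at 7.57 in wild-type cells. Its deficient point is drawn at the fitted value although slide 1 was dim there, where the bound was at least 101-fold and normexp gave 5.18. The points of undescribed a in both genotypes and of the heavy chain complex in deficient cells likewise have a dim slide. The J558-described a probe lies at -7.80 and -6.11, and mu at -1.39 and 0.02.

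Genes that act with the constant genes were read as lists with 1 probe a gene. Over both slides 7.58% of all probes were higher and 9.22% lower, the shares to set beside the counts below. Of 17 class switch genes read here, 1 was higher and 1 lower over both slides, with a median of 0.01. Neither count exceeded the share of all probes. Atm, a kinase of the DNA break response, was higher by 0.74 (adjusted p 0.0021), while Ung, which removes uracil from DNA, fell by 0.38 (adjusted p 0.0187).

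Of 17 measured transcription and architectural factors of the locus, 3 were higher and 2 lower over both slides, with a median of -0.08. On slide 1, 2 were higher and 7 lower, against 9.18% and 14.1% of all probes. On slide 2, 2 were higher and 0 lower, against 3.65% and 3.82%. Bach2, a repressor of the plasma cell program, was higher by 0.66 (adjusted p 0.000351), Pou2f2 (Oct-2) by 0.36 (adjusted p 0.00119) and its coactivator Pou2af1 by 0.24 (adjusted p 0.0198). Irf4 fell by 0.47 (adjusted p 0.0101). Rel, an NF-kappaB subunit, fell by 0.51 (adjusted p 0.0406), and on slide 1 it reached well above background on no deficient array and on 1 wild-type array. Its difference was -1.09 on slide 1 and 0.08 on slide 2 (adjusted p 0.894).

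Of 5 measured chain partners, Vpreb1 and Vpreb3, surrogate light chain genes, differed by -0.48 (adjusted p 0.0128) and -0.65 (adjusted p 0.0115), and the list median was -0.02. Of 4 measured light chain genes 0 passed over both slides by limma (and 0 with p unadjusted at 0.05), and Igkc, the kappa constant gene on chromosome 6, differed by -0.17 (SE 0.10, adjusted p 0.279). The light chain median was 0.49 on slide 1 and -0.67 on slide 2, so the value over both slides averages opposite signs. On each slide alone 0 passed as well. Group means of the Igkc probe ran from -2.87 to -0.78. Of 7 measured receptors for constant chains 2 rose, with a median of 0.38. Fcgr2b, the inhibitory IgG receptor, was higher by 2.69 on slide 2 (adjusted p 1.01e-09) and differed by -0.03 on slide 1 (adjusted p 0.86). Fcrla gave 2.50 (adjusted p 8.88e-07) and 0.10 (adjusted p 0.714) on the same slides.

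Plasma cells carry large amounts of switched heavy chain transcripts, so their markers are given beside the constant genes. Of 8 measured plasma cell markers, 4 rose and 1 fell in deficient cells of slide 1, against 9.18% and 14.1% of all probes. On slide 2, 4 fell, against 3.82% of all probes. The summed level of the list (log2 of the summed signals over the array's 75th percentile) ran from 7.92 to 8.92 in deficient cells and from 7.22 to 7.92 in wild-type cells of slide 1, and from 7.28 to 7.68 in deficient cells and from 7.72 to 8.16 in wild-type cells of slide 2. Igj, the joining chain of IgM and IgA, was higher by 1.05 on slide 1 (adjusted p 0.0296) and differed by -1.09 on slide 2 (adjusted p 0.0524). Tnfrsf17, the plasma cell receptor BCMA, was higher by 2.04 on slide 1 (adjusted p 0.00223) and was dim on every deficient array of slide 2, where wild-type arrays were all well above background (adjusted p 0.00363). The constant genes from epsilon to gamma 3 fell on both slides, beside 4 plasma cell markers that rose on slide 1 and 4 that fell on slide 2. The part of plasma cells in these falls was not tested.

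Of the other cell types, erythroid genes differed between genotypes on slide 2. Of 3 measured erythroid genes, Hba-a1 was higher by 4.93 there (adjusted p 0.000107), and Hbb-b1 was higher as well (adjusted p 1.78e-05), with all 4 wild-type arrays dim. Their summed level ran from 0.91 to 3.29 in deficient cells and from -3.55 to -3.04 in wild-type cells of slide 2, and from 5.93 to 7.75 and from 5.78 to 8.42 on slide 1. Of 7 T cell markers 2 were higher on slide 2, against 3.65% of all probes, with summed levels of 5.97 to 6.77 in deficient and 5.97 to 6.64 in wild-type cells. One of those T cell markers, Cd3g, was well above background on no array of slide 2. The part of these cells in the constant gene levels was not tested.

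Outside the locus, the named genes whose slide-centred levels ran most like the mean of the members other than mu and delta over 16 arrays were Nuf2 (r = 0.97), Aim2 (r = 0.96) and St3gal1 (r = 0.96). Nuf2 and Aim2 lie on chromosome 1 and differed by -5.66 and -1.34 over both slides, and St3gal1, on chromosome 15, by -0.60. For mu they were Mcts2 (r = 0.95), Rab3d (r = 0.94) and Tex12 (r = 0.94). The 16 points share 4 groups of genotype and slide, and these values are descriptions.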

How the data were processed

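Spot intensity values are the authors' scanner output, made with Agilent Feature Extraction 10.7.3.1 on mm9 per the file headers, and the processed intensity was background-subtracted within each array. The authors also deposited a table of log2 values (column medians 5.58 to 5.60 on slide 1 and 6.49 to 6.50 on slide 2), used as an alternative within slides; the labels do not describe its steps. The submitters' processing notes name limma. Of 62976 spots per array, 3671 controls were left out. The log2 of the processed signal over the 75th percentile of its array (576 to 851 on slide 1, 596 to 990 on slide 2) was averaged over spots of a probe. No member spot was saturated. Probes well above background on at least 4 arrays (32880) were fitted in limma 3.58.1 (R 4.3.3) with 4 group means, lmFit and eBayes, tested on simulated data. The number of arrays limits the precision.

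Every non-control probe of the interval is reported. The lists take the brightest probe of a gene; Iglon5, which matches the name pattern for light chains, was left out as no light chain. Some genes of the class switch list are not reported here. The 3 genes most like the members are named by Pearson's r, and genes named from lists were chosen among them after their values were seen. Members and lists were chosen with earlier results of these data known. Alternatives were normexp (offset 50), median and quantile scaling, other filters, dim values at the floor, slide blocks, array weights, each slide alone, the deposited table, a replicate block and leaving out each array.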

Additional observations from a re-analysis of the deposited data

Results flagged for a closer look

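For 6 of the 17 probes the difference between genotypes itself differed between the slides, against 13.9% of all probes. Slide 2 minus slide 1, the differences were -4.84 for the undescribed a probe (dim on all of slide 1), 5.69 and 4.46 for gamma 1 a and b, 1.39 for gamma 3, 1.60 for delta and -1.41 for mu. The gamma 1, gamma 3 and delta probes thus had the larger fall on slide 1, and mu on slide 2.

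Single arrays stood apart from the other 3 of their group in 3 of 68 groups tested, where chance gives about 5%. Deficient array 4 of slide 2 was high for the J558-described b probe (-1.92) and for the heavy chain complex probe (-5.63, not well above background). Deficient array 12 of slide 1 was low for gamma 1 a (-6.41, not well above background).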

How the results depend on the processing

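Each count of probes past the threshold stayed within 1.5 times its reported value under every alternative run. Over both slides 13 to 15 probes fell, with 13 under either slide block and 15 in the deposited table, and 14 to 15 with 1 array left out. On slide 1 11 to 14 fell (12 to 13 with 1 array left out), with 11 when the slide was fitted alone and 14 with array weights. On slide 2 12 to 13 fell (13 with any 1 array left out). Relative to mu 12 fell throughout, and 6 to 8 probes differed between slides. Same-numbered arrays of slide 2 were not shown to be paired, since their deviations correlated with r of 0.01, 0.10 and 0.06, and with the replicate block 13 probes fell, as without it on the same arrays. Values with dim signals moved: over both slides normexp gave -2.24 for the heavy chain complex, -2.21 for undescribed a and -2.52 for gamma 2C, and on slide 1 epsilon was -2.41 with normexp and -3.50 with dim values at the floor. On slide 1 undescribed a passed with quantile normalization (-1.08), with array weights (-0.97) and without wild-type array 2 (-1.33), although dim in both genotypes. Mu passed on slide 1 with array weights (-0.68), and undescribed b without deficient array 9 (-0.58).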
